A study of Mus musculus with 4 samples.

Results

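Theca cells and stromal fibroblasts form the connective tissue of the ovary, and 10 genes that mark them or that they secrete were followed in every library. They are Pdgfra, Pdgfrb, Tcf21, Nr2f2, Insl3, Dcn, Lum, Fn1, Postn and Thbs1, chosen by name as theca, interstitial and fibroblast genes among the 54021 gene symbols of the count table. The rOvaries are grafts grown beneath the kidney capsule of ovariectomized recipients from aggregates of primordial germ cells and somatic cells of the fetal gonad, which came from C57BL/6 fetuses carrying actin-GFP. The recipients of both groups were G2 Terc−/− females on a C57BL/6 background, aged 2 to 3 months, which lack the RNA component of telomerase. INK128, an inhibitor of the kinase mTOR, was given in the drinking water to 1 group at 0.75 μM per g as the labels put it, and the Control group received no INK128. RNA was taken 1 month after transplantation. There were 2 libraries per group, INK128 replicates 1 and 2 and Control replicates 1 and 3. Nothing in the sources used here says how many grafts or mice stand behind a library, and p-values here measure only the spread between these libraries. A graft can carry cells of the host, including its kidney, vessels and blood.

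In the ovary, theca cells arise from stromal progenitors around the growing follicle, respond to hedgehog ligands from granulosa cells, and make androgens under luteinizing hormone. PDGF receptors, bound by PDGF ligands, mark fibroblasts, theca progenitors and the pericytes of vessels. Fibroblasts lay down collagen fibrils whose spacing is set by small leucine-rich proteoglycans such as decorin and lumican, and matricellular proteins such as periostin and thrombospondin 1 tie the matrix to integrins and growth factors.

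Of the 10 genes, 1 passed the test. Nr2f2, which encodes a nuclear receptor of stromal and theca progenitor cells, was higher in the INK128-treated rOvaries by 2.07-fold. Lum and Tcf21 were above both controls in each INK128-treated rOvary, by 2.34-fold and 2.92-fold of the means, without passing. Dcn and Pdgfra, the most general fibroblast genes of the set, differed by 1.20-fold and 1.19-fold. For Pdgfrb, Fn1, Postn and Insl3 the 2 controls lay 2.61-fold to 4.18-fold apart and the groups overlapped. Thbs1 was the 1 gene with lower values in both INK128-treated rOvaries, at 0.672-fold, and it did not pass either. All 10 genes had enough counts to be tested, with means over the 4 libraries from 30.8 to 2270 CPM (counts per 1e+06 counts of a library, scaled with TMM factors). A gene was called when it changed by more than 1.5-fold at a Benjamini-Hochberg adjusted p below 0.05 in edgeR's quasi-likelihood test, fitted to the 11758 genes with a mean CPM above 10. That test called 3.18% of all tested genes higher and 3.19% lower, against 1 and 0 of the 10. An unadjusted p below 0.05, quoted for some lists, was reached by 36.4% of all tested genes and by 3 of the 10. DESeq2 on the same genes called Nr2f2, Lum and Tcf21, all higher, with 13.6% of all tested genes called higher and 15.1% lower. The median log2 fold change of the 10 was 0.26, and that of all tested genes was −0.03. The median of the 10 was 1.18 without Control replicate 3 and 0.72 with offsets for exon length. INK128 values lay above both controls for 4 of the 10 and below both for 1, and for 34.5% and 34.0% of all tested genes. The groups overlapped for the other 5, and for 31.5% of all tested genes. The smallest two-sided p that an exact permutation test of a single gene allows with 2 libraries a side is 0.333.

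**Figure D1:**
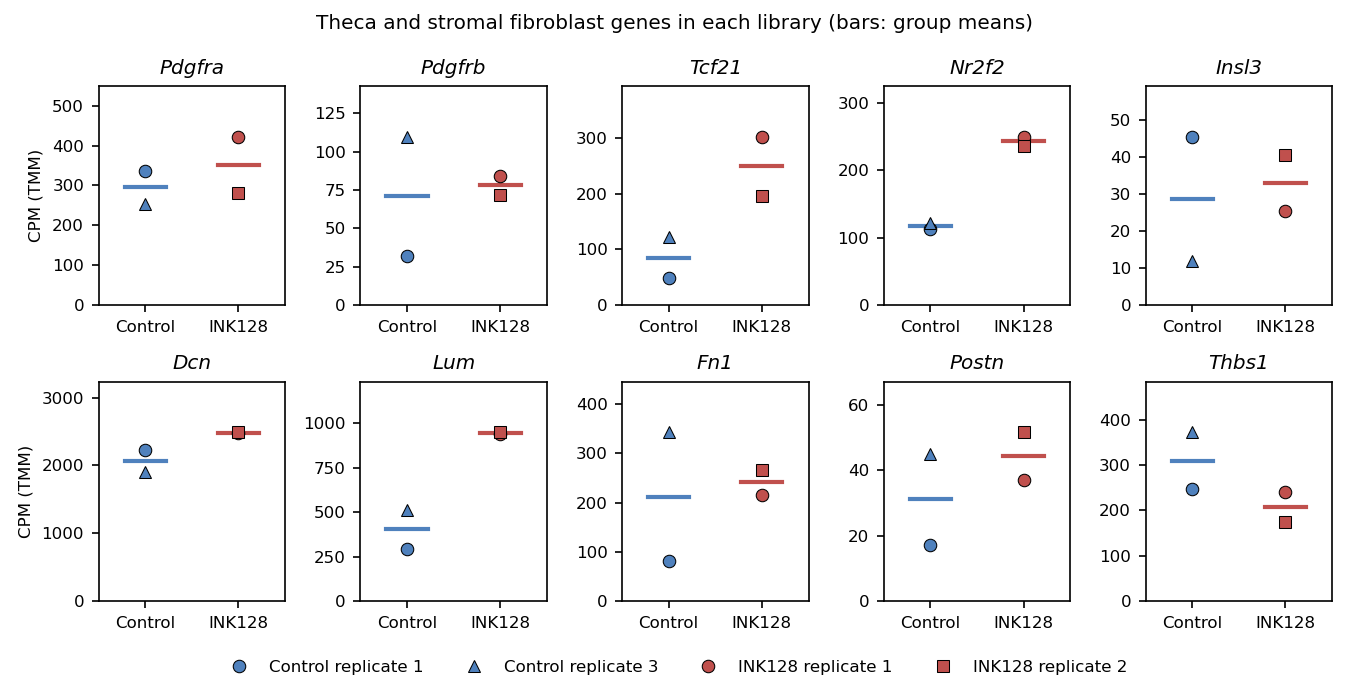
CPM (with TMM factors, linear axes from 0) of each of the 10 genes in the 4 libraries, with points for libraries and bars for the means of the 2 libraries of a group. For Nr2f2 the INK128-treated rOvaries sit at 250 and 237 CPM and the controls at 113 and 122 CPM, whereas for Fn1 the controls sit at 82.1 and 343 CPM, on either side of both INK128-treated rOvaries.

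The libraries held 19130209 to 23029089 counts. The tissue label was set against markers of other cells. Granulosa genes were present in all 4 libraries, the 9 markers summing to 6622 and 8666 CPM with INK128 and to 3491 and 6649 CPM in Control replicates 1 and 3. The 9 oocyte markers summed to 1034, 763 and 745 CPM in INK128 replicates 1 and 2 and Control replicate 1, and to 23.4 CPM in Control replicate 3. The 7 Sertoli cell markers summed to 1055 CPM in Control replicate 1 and to between 92.3 and 196 CPM elsewhere, and 4 Y-linked genes to 45.2 CPM in that library and to between 0 and 0.107 CPM elsewhere. The donor gonads were described as female, so Control replicate 1 stands apart from that description. Of the 13 kidney tubule markers, 12 were tested, all 12 were lower with INK128 and 6 were called. Their sums were 116 and 209 CPM with INK128 and 736 and 1675 CPM in controls. Among all tested genes, 13.8% lay more than 2-fold apart between the 2 controls, against 5 of the 10 genes described here. Fold changes are therefore also given without each control where the direction or the call moves. These fits call far more genes than the one with all 4 libraries. EdgeR called 22.7% of all tested genes higher and 23.1% lower without Control replicate 1, and 21.3% higher and 21.4% lower without Control replicate 3. Of the 10 genes, 4 were called higher and 1 lower in the former fit and 6 higher and 0 lower in the latter.

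The bases just before the transcript start are shown for genes whose values contrasted: Nr2f2 and Tcf21, with INK128 values above both controls, and Postn and Insl3, in which the groups overlapped. RefSeq entries on GRCm38.p6 were found for 5 of the 10 genes, by symbol. Each run below is the 250 bases before a start on the gene's strand, with capitals for matches on either strand to the letters of a promoter box near the start (TATAAA), of the box bound by SP1 (GGGCGG), of an E-box (CAGCTG), the kind of site bound by basic helix-loop-helix factors such as TCF21, or of a single nuclear receptor site (AGGTCA), the kind bound by factors such as NR2F2. For Postn, which has 2 listed starts, the one nearest the annotated gene start is shown.
Nr2f2, chr7:70366747-70366996, minus strand: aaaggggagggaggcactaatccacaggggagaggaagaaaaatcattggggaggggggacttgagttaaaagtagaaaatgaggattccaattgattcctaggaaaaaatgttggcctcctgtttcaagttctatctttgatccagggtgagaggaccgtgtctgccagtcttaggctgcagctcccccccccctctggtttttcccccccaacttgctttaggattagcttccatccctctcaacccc
Tcf21, chr10:22820144-22820393, minus strand: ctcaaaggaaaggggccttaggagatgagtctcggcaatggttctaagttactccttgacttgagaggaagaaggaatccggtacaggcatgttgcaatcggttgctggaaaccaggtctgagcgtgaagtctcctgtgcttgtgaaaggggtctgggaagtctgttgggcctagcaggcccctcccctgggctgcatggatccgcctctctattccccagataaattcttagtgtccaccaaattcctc
Postn, chr3:54360857-54361106, plus strand: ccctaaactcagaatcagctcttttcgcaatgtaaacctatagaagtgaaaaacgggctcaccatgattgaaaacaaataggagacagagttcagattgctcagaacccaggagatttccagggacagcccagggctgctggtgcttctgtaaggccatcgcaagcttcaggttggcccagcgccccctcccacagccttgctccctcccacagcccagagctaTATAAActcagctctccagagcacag
Insl3, chr8:71689002-71689251, plus strand: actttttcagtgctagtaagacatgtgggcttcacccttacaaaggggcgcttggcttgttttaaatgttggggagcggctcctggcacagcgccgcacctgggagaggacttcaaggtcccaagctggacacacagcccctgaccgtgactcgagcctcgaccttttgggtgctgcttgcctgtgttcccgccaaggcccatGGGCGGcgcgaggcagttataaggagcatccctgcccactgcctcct

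No match to the 4 motifs was found in these windows of Nr2f2 and Tcf21. Postn held 1 match to TATAAA close to the start shown, whereas the window of its other listed start held 1 match to AGGTCA and none to TATAAA. Insl3 held 1 match to GGGCGG. Over the 32851 promoter windows of the same length, TATAAA was found in 12.4%, GGGCGG in 32.7%, CAGCTG in 13.0% and AGGTCA in 14.0%, so most windows lack any one of them. The GC content was 50.0% for Nr2f2, 52.4% for Tcf21, 52.0% for Postn and 59.2% for Insl3, around the median of 52.4%. The windows held 1, 5, 4 and 11 CpG dinucleotides in the same order, with a median of 6 over all windows.

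Nr2f2 and Tcf21 are the transcription factors of the set. Nr2f2 (also called COUP-TFII, chromosome 7, 70351944 to 70366735 of mm10) had 250 and 237 CPM in INK128 replicates 1 and 2 and 113 and 122 CPM in Control replicates 1 and 3. Both groups were tight and did not overlap, with means of 244 ± 9.40 and 117 ± 6.77 CPM (SD, n = 2). On the log2 scale it rose by 1.05 ± 0.17 (standard error, as after ± for every log2 fold change here), with adjusted p = 0.0475 (edgeR). That p lies close to the threshold, and over 14 alternative fits it ran from 2.34e-06 to 0.431. The call was absent with library totals (adjusted p = 0.0506, edgeR), where 7.40% of all tested genes were called. It was also absent in 5 fits that called 0% of all tested genes and so single out no gene: limma voom (adjusted p = 0.0599), a mean CPM above 1, offsets for exon length, and leaving out INK128 replicate 1 or 2 (adjusted p = 0.0555, 0.0758, 0.371 and 0.431, edgeR). With every gene of at least 1 count, edgeR called Nr2f2, Lum and Tcf21 higher, beside 3.66% of all genes higher and 6.20% lower. The log2 fold change itself stayed between 0.93 and 1.45 in these fits. Without Control replicate 1 it was 0.98, and without Control replicate 3 it was 1.10, called in both. A gene on the opposite strand, B130024G19Rik, shares 643 exon bases with Nr2f2, and it had 88 to 231 counts against 2545 to 5151 for Nr2f2.

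Tcf21, a basic helix-loop-helix factor of mesenchymal progenitors, lies on chromosome 10 from 22817281 to 22820174. It had 302 and 196 CPM with INK128 and 48.6 and 122 CPM in Control replicates 1 and 3. The groups did not overlap, but replicates differed within both, by 1.54-fold with INK128 and by 2.51-fold in controls. Tcf21 differed by 1.55 ± 0.51 on the log2 scale (adjusted p = 0.11 in edgeR and 0.0137 in DESeq2). The difference was 1.02 without Control replicate 1 and 2.34 without Control replicate 3, called in both. Tcf21 is also a gene of kidney podocytes. Nphs1, a defining podocyte gene that encodes nephrin, had 7.41 and 8.79 CPM with INK128 and 3.67 and 6.37 CPM in controls. The podocyte list had 2 of 5 markers tested and 0 called by edgeR (1 at an unadjusted p below 0.05, and 1 lower by DESeq2). The part of podocytes in the Tcf21 result was not tested.

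Among the partners listed for these genes, TCF3, TCF4 and TCF12 are helix-loop-helix proteins that pair with factors such as TCF21, and NR2F1 and NR2F6 are relatives of NR2F2. Of 6 partners 5 were tested and 0 were called by edgeR (3 at an unadjusted p below 0.05), while DESeq2 called 1 higher and 1 lower. Tcf12 had 78.4 and 72.1 CPM with INK128 and 106 and 149 CPM in controls (log2 fold change −0.76, adjusted p = 0.0931, edgeR). Nr2f6 had 91.3 and 94.4 CPM against 52.2 and 64.1 CPM (log2 fold change 0.67, adjusted p = 0.0804, edgeR). The list of theca and interstitial progenitor genes, which holds Tcf21 and Nr2f2, had 11 tested genes with a median log2 fold change of 0.64. Nr2f2 was the 1 call in edgeR (6 genes had an unadjusted p below 0.05), DESeq2 called 5 higher and 2 lower, and INK128 values lay above both controls for 7 and below both for 3. Wt1, a factor of gonadal progenitors that Sertoli cells and podocytes also express, had 56.3 and 46.3 CPM with INK128 and 311 and 64.6 CPM in Control replicates 1 and 3. Its log2 fold change of −1.87 (adjusted p = 0.153, edgeR) became −0.35 without Control replicate 1 and −2.61 without Control replicate 3.

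The PDGF receptors gave unlike pictures. Pdgfra, the receptor of theca progenitors and most fibroblasts (chromosome 5, 75152292 to 75198215), had 423 and 282 CPM with INK128 and 336 and 254 CPM in controls. The libraries of the groups interleaved, with replicate 1 the higher one on both sides. Its log2 fold change was 0.26 ± 0.29 (adjusted p = 0.54, edgeR), and without INK128 replicate 1 it was −0.061. Pdgfrb, the receptor of pericytes and of part of the stroma (chromosome 18, 61045150 to 61085061), had 84.0 and 72.1 CPM with INK128 and 32.1 and 110 CPM in Control replicates 1 and 3. Both INK128-treated rOvaries lay between the controls. For Pdgfrb the log2 fold change was 0.14 ± 0.59 (adjusted p = 0.88, edgeR). It was −0.51 without Control replicate 1, too small a fold to be called at an adjusted p of 0.0402, and 1.27 without Control replicate 3, where it was called (adjusted p = 0.000327, edgeR). The ratio of Pdgfra to Pdgfrb per kilobase of exon was 2.75 and 2.14 with INK128, 5.72 in Control replicate 1 and 1.26 in Control replicate 3. None of the 7 PDGF ligands and receptors was called by edgeR or DESeq2, 0 had an unadjusted p below 0.05, and their median log2 fold change was 0.14. Reads of 3 short or antisense genes within Pdgfra exons numbered 0 to 234 in any library. The ligand gene Pdgfb had 24.0 and 23.3 CPM with INK128 and 26.5 and 36.0 CPM in controls (log2 fold change −0.40, adjusted p = 0.289, edgeR), with −0.62 without Control replicate 1 and −0.17 without Control replicate 3.

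Pericytes and smooth muscle cells also carry Pdgfrb. All 11 of their markers were tested, 9 had a positive log2 fold change, 2 were called higher and 0 lower by edgeR, 5 higher and 0 lower by DESeq2, and the list median was 0.76. The called genes encode contractile proteins. Acta2, alpha smooth muscle actin, had 2559 and 2386 CPM with INK128 and 308 and 612 CPM in controls, and rose by 2.43 on the log2 scale (adjusted p = 0.0464, edgeR). Cnn1, calponin, had 179 and 211 CPM against 25.5 and 49.5 CPM and rose by 2.38 (adjusted p = 0.0464, edgeR). The summed markers were 5090 and 5175 CPM with INK128 and 793 and 1879 CPM in Control replicates 1 and 3. The smooth muscle genes Acta2, Tagln, Myh11 and Cnn1 made up most of these sums. Of the other 7 markers, Rgs5, Notch3, Mcam, Kcnj8 and Abcc9 overlapped between groups as Pdgfrb did, while Des and Cspg4 had INK128 values above both controls. Rgs5 had 54.4 and 83.5 CPM with INK128 and 28.6 and 101 CPM in Control replicates 1 and 3, and Cspg4 had 35.2 and 32.5 CPM against 11.3 and 26.2 CPM. The part of these cells in the Pdgfrb result was not tested. In bulk RNA, fewer cells of a type and less RNA per cell cannot be told apart.

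Insl3 encodes a relaxin-like hormone of theca cells, and of Leydig cells in the testis. It had 25.3 and 40.6 CPM with INK128 and 45.4 and 12.0 CPM in Control replicates 1 and 3. The controls formed the highest and the lowest value, 3.78-fold apart. With all 4 libraries the log2 fold change was 0.20 ± 0.67 (adjusted p = 0.846, edgeR). Without Control replicate 1 it was 1.44 and was called (adjusted p = 0.00342, edgeR), and without Control replicate 3 it was −0.47 (adjusted p = 0.14, edgeR). With offsets for exon length it was −0.39. Insl3 (chromosome 8, 71689214 to 71690575) overlaps Jak3 on the same strand, whose exons cover 404 of its 623 exon bases. Jak3, a kinase of cytokine receptors in blood cells, had 590, 1019, 1342 and 602 counts in INK128 replicates 1 and 2 and Control replicates 1 and 3. Insl3 had 472, 882, 1026 and 285 counts in the same libraries. How reads in the overlap were assigned is not given in the sources used here, so the level of Insl3 is uncertain. The receptor gene Rxfp2 was not tested, with 0 to 0.664 CPM.

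The sum of a list of steroid synthesis genes, which theca cells use but which is not of androgen synthesis alone, ranked the libraries otherwise than Insl3. Of 10 tested genes 0 were called by edgeR and 0 had an unadjusted p below 0.05, and DESeq2 called 1 lower, Star. Their sum was 4935 and 6153 CPM with INK128 and 1371 and 12828 CPM in Control replicates 1 and 3, so the control with the higher Insl3 value had the lower sum. In Control replicate 3 the largest parts of it were Hsd3b1 (4211 CPM) and Cyp11a1 (4032 CPM). Cyp17a1, the enzyme that defines androgen-making theca cells, had 354 and 422 CPM with INK128 and 17.0 and 165 CPM in Control replicates 1 and 3. It differed by 2.09 ± 1.04 on the log2 scale without passing (adjusted p = 0.214, edgeR), and by 1.22 and 4.50 without Control replicates 1 and 3 in turn. Star, which moves cholesterol into mitochondria, had 134 and 168 CPM with INK128 and 174 and 795 CPM in controls (log2 fold change −1.68, adjusted p = 0.176, edgeR). Without Control replicate 1 the value for Star was −2.41, and without Control replicate 3 it was −0.21. Of the 3 Leydig cell markers 2 were tested, with 0 called by edgeR or DESeq2 and 0 at an unadjusted p below 0.05. The 3 markers summed to 358 and 475 CPM with INK128 and 19.04 and 173.6 CPM in controls, most of it Cyp17a1. Hsd3b6 had 2.95 and 53.2 CPM in INK128 replicates 1 and 2 and 0.62 and 8.52 CPM in Control replicates 1 and 3. The 7 Sertoli cell markers, with 5 tested, 0 called by edgeR, 0 at an unadjusted p below 0.05 and 1 called lower by DESeq2, had their high sum in the same Control replicate 1 that had the highest Insl3 value. The part of male cells in the Insl3 result was not tested.

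Hedgehog signaling was followed by 9 genes, all tested and 0 called by edgeR (1 at an unadjusted p below 0.05), with a median log2 fold change of 0.07. DESeq2 called 2 of them higher. Gli1, a transcription factor that is itself induced by the pathway, had 32.4 and 46.2 CPM with INK128 against 11.3 and 16.8 CPM in controls, a log2 difference of 1.48 (adjusted p = 0.0583, edgeR; adjusted p = 0.0021, DESeq2). Hhip, an inhibitor induced by the pathway, had 61.9 and 61.5 CPM against 8.37 and 30.7 CPM (log2 fold change 1.66, adjusted p = 0.138, edgeR), and its value was 0.99 and 2.87 without Control replicates 1 and 3 in turn.

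Decorin and lumican are neighbours on chromosome 10 and belong to the same family of proteoglycans that bind collagen. Dcn (97479609 to 97518143) had 2471 and 2486 CPM with INK128 and 2227 and 1897 CPM in controls, the highest level of the 10 genes in every library, both in CPM and per kilobase of exon. The groups did not overlap, yet the log2 fold change was as small as 0.27 ± 0.19 (adjusted p = 0.347, edgeR). It kept this sign and was never called in 14 alternative analyses, where it ranged from 0.14 to 0.45. Lum (97565128 to 97572703) had 938 and 950 CPM with INK128 and 294 and 513 CPM in Control replicates 1 and 3. The INK128-treated rOvaries were within 1.01-fold of each other and well above both controls. Lum differed by 1.23 ± 0.32 on the log2 scale (adjusted p = 0.073 in edgeR and 0.00293 in DESeq2). Without Control replicate 1 it was 0.87 and without Control replicate 3 it was 1.67, called in both. With offsets for exon length it was 0.86 (adjusted p = 0.208, edgeR). A ratio taken within a library does not depend on how libraries are scaled, and the CPM of Lum relative to Dcn was 0.379 and 0.382 with INK128 and 0.132 and 0.270 in controls.

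Of the 11 small leucine-rich proteoglycans 8 were tested, and their median log2 fold change was 0.47. INK128 values lay above both controls for 5 and below both for 1. DESeq2 called 3 higher and 1 lower. The 1 call in edgeR was Prelp, which anchors basement membranes to collagen. It had 27.3 and 29.7 CPM with INK128 and 134 and 80.8 CPM in controls, and fell by 1.91 on the log2 scale (adjusted p = 0.0464, edgeR). Aspn, asporin, had 293 and 426 CPM with INK128 and 25.0 and 143 CPM in Control replicates 1 and 3. Aspn differed by 2.10 ± 0.85 on the log2 scale (adjusted p = 0.152, edgeR), and by 1.32 and 3.83 without Control replicates 1 and 3 in turn. Of the 11 stromal collagens, all tested, edgeR called 1 and DESeq2 2, each of them lower, with a median of 0.18. Col14a1, a collagen that sits on the surface of fibrils, had 15.6 and 13.3 CPM against 46.0 and 53.9 CPM in controls and fell by 1.79 (adjusted p = 0.0464, edgeR). Col15a1, of the zone beside basement membranes, had 127.2 and 128.4 CPM against 366 and 218 CPM (log2 fold change −1.19, adjusted p = 0.0694, edgeR).

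Fn1, Postn and Thbs1 encode adhesive matrix proteins. Fn1, fibronectin (chromosome 1, 71585520 to 71653200), had 216 and 266 CPM with INK128 and 82.1 and 343 CPM in Control replicates 1 and 3. The controls enclosed both INK128-treated rOvaries and lay further apart than those of 96.3% of tested genes. For Fn1 the log2 fold change was 0.18 ± 0.68 (adjusted p = 0.861, edgeR). It was −0.52 without Control replicate 1 (adjusted p = 0.0545, edgeR) and 1.54 without Control replicate 3, where it was called (adjusted p = 0.000144, edgeR). Apol7d, on the opposite strand, shares 292 exon bases with Fn1 and had 6 and 8 counts with INK128 and 22 and 369 in Control replicates 1 and 3.

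Postn, periostin (chromosome 3, 54361109 to 54391037), was the lowest of the 10 per kilobase of exon in every library, with 37.0 and 51.7 CPM with INK128 and 17.3 and 45.0 CPM in Control replicates 1 and 3. Control replicate 3 fell between the INK128-treated rOvaries, and Control replicate 1 was the low value. For Postn the log2 fold change was 0.51 ± 0.51 (adjusted p = 0.493, edgeR). It was −0.034 without Control replicate 1 and 1.35 without Control replicate 3, called only in the latter (adjusted p = 0.000876, edgeR).

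Thbs1, thrombospondin 1, which activates latent TGF-beta and restrains vessel growth, lies on chromosome 2 from 118111876 to 118127133. It had 242 and 174 CPM with INK128 and 247 and 372 CPM in controls, so INK128 replicate 1 and Control replicate 1 were close to each other. Thbs1 differed by −0.57 ± 0.30 on the log2 scale (adjusted p = 0.231, edgeR). It was −0.85 and called without Control replicate 1 (adjusted p = 0.00935, edgeR) and −0.26 without Control replicate 3. Gm29233, on the opposite strand, shares 208 exon bases with Thbs1 and had 175 and 198 counts with INK128 and 679 and 633 counts in controls. Whether counting used the strand is not given in the sources used here, so reads of the shared bases could belong to either.

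**Figure D2:**
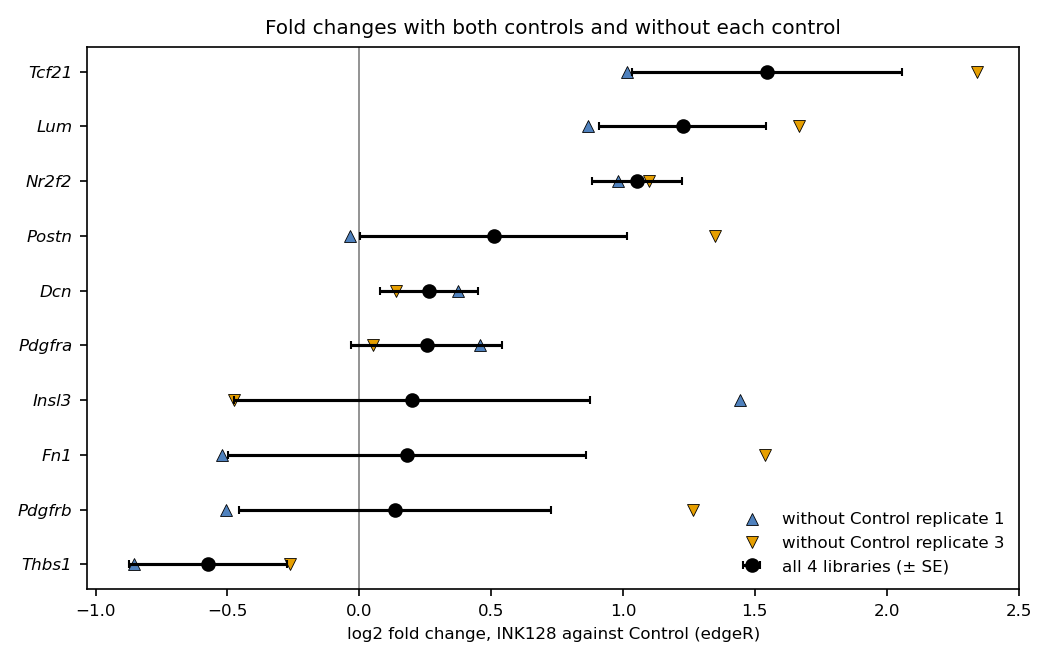
Log2 fold change (INK128 against Control, edgeR) of the 10 genes with all 4 libraries (black, with its standard error), without Control replicate 1 (blue triangles) and without Control replicate 3 (orange triangles). The 3 values of Nr2f2 lie between 0.98 and 1.10, whereas those of Fn1 run from −0.52 to 1.54 and those of Insl3 from −0.47 to 1.44.

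The other matricellular genes and their receptors were read beside these. Of 16 matricellular genes 14 were tested, edgeR called 0 higher and 2 lower, 4 had an unadjusted p below 0.05, DESeq2 called 1 higher and 3 lower, and the median log2 fold change was −0.27. Spp1, osteopontin, which kidney tubules also make, had 4.88 and 9.57 CPM with INK128 and 91.9 and 185 CPM in controls, and fell by 4.26 on the log2 scale (adjusted p = 0.0464, edgeR). Tnxb, a tenascin of loose connective tissue, had 43.2 and 38.8 CPM against 80.2 and 98.4 CPM and fell by 1.12 (adjusted p = 0.0487, edgeR). Of 11 receptors of fibronectin, thrombospondin 1 and periostin 10 were tested and 0 were called by edgeR or DESeq2 (0 at an unadjusted p below 0.05). The groups overlapped for 9 of the 10 receptors tested, and for 31.5% of all tested genes. Itgav, an integrin chain that binds all of these ligands, had 164 and 112 CPM with INK128 and 216 and 184 CPM in controls (log2 fold change −0.53, adjusted p = 0.201, edgeR). Sdc4, a syndecan, had 135 and 107 CPM against 256 and 127.6 CPM (log2 fold change −0.66, adjusted p = 0.269, edgeR), and its value was −0.088 without Control replicate 1 and −1.09 without Control replicate 3.

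The list of matrix remodelling genes, mostly enzymes and inhibitors of matrix turnover, held calls in both directions. Of its 12 genes, which include Vim and S100a4 as general mesenchymal genes, 9 were tested, 2 were called higher and 1 lower by edgeR and 3 higher and 1 lower by DESeq2, with a median of 0.30. Loxl1, which cross-links elastin and collagen, had 230 and 243 CPM with INK128 and 97.1 and 114 CPM in controls and rose by 1.16 on the log2 scale (adjusted p = 0.0464, edgeR). Mmp2, a gelatinase of fibroblasts, had 514 and 456 CPM against 218 and 244 CPM and rose by 1.07 (adjusted p = 0.0487, edgeR). Timp3, a matrix-bound inhibitor of such proteases that the kidney also makes, had 123 and 127 CPM against 326 and 534 CPM and fell by 1.78 (adjusted p = 0.048, edgeR). Of 13 other fibroblast markers 11 were tested, edgeR called 0 higher and 1 lower, 6 had an unadjusted p below 0.05, and DESeq2 called 3 higher and 3 lower, with a median of −0.01. Ly6a, an antigen of progenitor fibroblasts and also of endothelium and blood cells, had 15.8 and 20.9 CPM with INK128 and 60.8 and 53.3 CPM in controls and fell by 1.63 (adjusted p = 0.0464, edgeR). Mfap4, a microfibril protein, had 535 and 810 CPM against 138 and 236 CPM (log2 fold change 1.85, adjusted p = 0.053, edgeR). Clec3b, tetranectin, had 20.1 and 10.3 CPM against 82.0 and 31.3 CPM (log2 fold change −1.90, adjusted p = 0.0998, edgeR), and its value was −1.06 and −2.45 without Control replicates 1 and 3 in turn.

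Taking each gene once, the stromal lists held 107 genes beside the 10, of which 95 were tested. EdgeR called 2 higher and 6 lower, which is 8.42% of them, where it called 3.18% of all tested genes higher and 3.19% lower. DESeq2 called 14 higher and 14 lower, beside 13.6% and 15.1% of all tested genes. Their median log2 fold change was 0.01, with 49 of the 95 above 0. INK128 values lay above both controls for 27 and below both for 23, against 34.5% and 34.0% of all tested genes. Without Control replicate 1 and without Control replicate 3, 42 and 54 of the list genes were called, in fits that called 22.7% and 21.3% of all tested genes higher and 23.1% and 21.4% lower. Without either INK128 replicate none was called, as for every other tested gene.

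**Figure D3:**
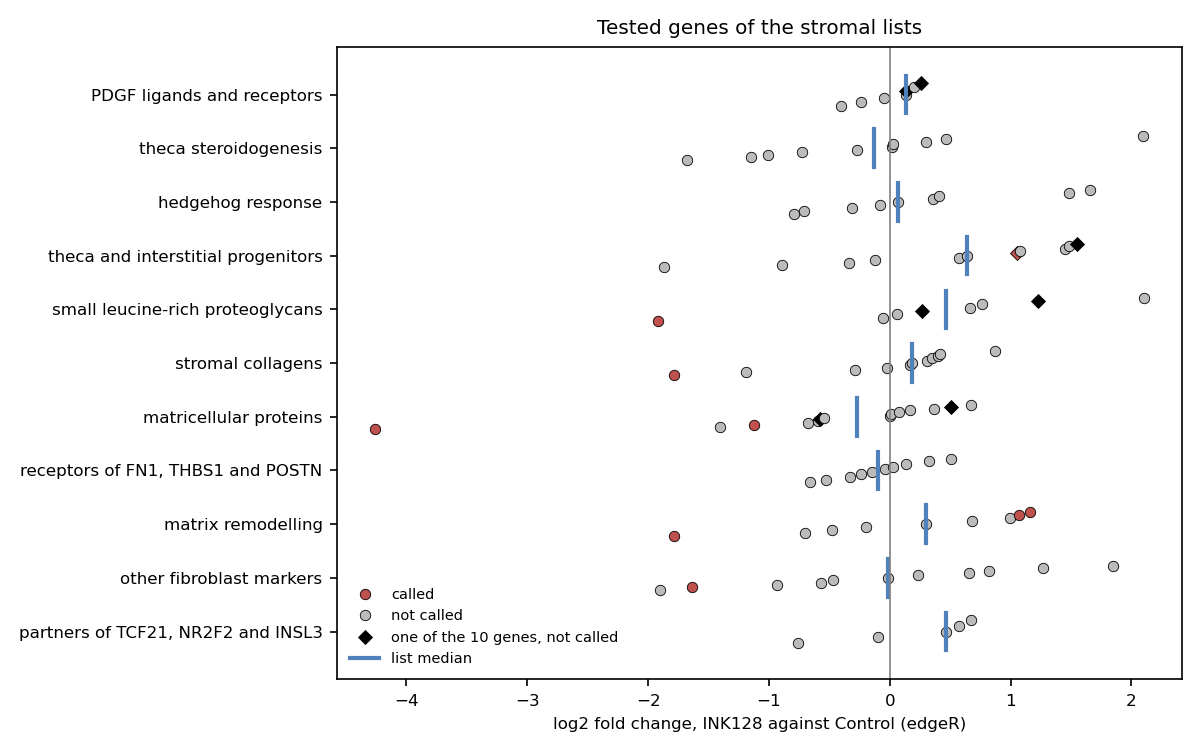
Log2 fold change (INK128 against Control, edgeR) of every tested gene in the 11 stromal lists, with 1 point per gene in each list that holds it. Called genes are red, and blue bars are list medians. Diamonds mark those of the 10 genes that are in a list, which are all but Fn1 and Insl3. Medians run from −0.27 for matricellular proteins to 0.64 for theca and interstitial progenitors, and most lists hold genes on both sides of 0.

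The 10 genes differed widely in the spread between replicates. With INK128 the 2 rOvaries lay within 1.60-fold of each other for all 10 genes, and within 1.06-fold for Nr2f2, Dcn and Lum. Set against all tested genes, these INK128 gaps were wide for some of the 10. They exceeded those of 96.8% of tested genes for Insl3, 96.1% for Tcf21, 95.3% for Pdgfra, 91.4% for Postn and 91.0% for Thbs1. The share was 75.0% for Fn1, 60.6% for Pdgfrb, 24.1% for Nr2f2, 5.92% for Lum and 2.75% for Dcn. In controls, 5 genes lay more than 2-fold apart, namely Fn1, Insl3, Pdgfrb, Postn and Tcf21. Control replicate 3 was the higher control for Fn1, Pdgfrb, Postn, Tcf21, Lum, Thbs1 and Nr2f2, and Control replicate 1 for Insl3, Pdgfra and Dcn. The profiles over the 4 libraries were compared as the root mean square difference of log2 CPM after centring each gene. Of the 45 pairs the closest were Pdgfra with Dcn at 0.218, Pdgfrb with Fn1 at 0.222, Fn1 with Postn at 0.261 and Nr2f2 with Lum at 0.270. Insl3 stood furthest from the rest, at 1.40 from Fn1 and 1.36 from Tcf21. These distances describe 4 libraries and carry no test.

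**Figure D4:**
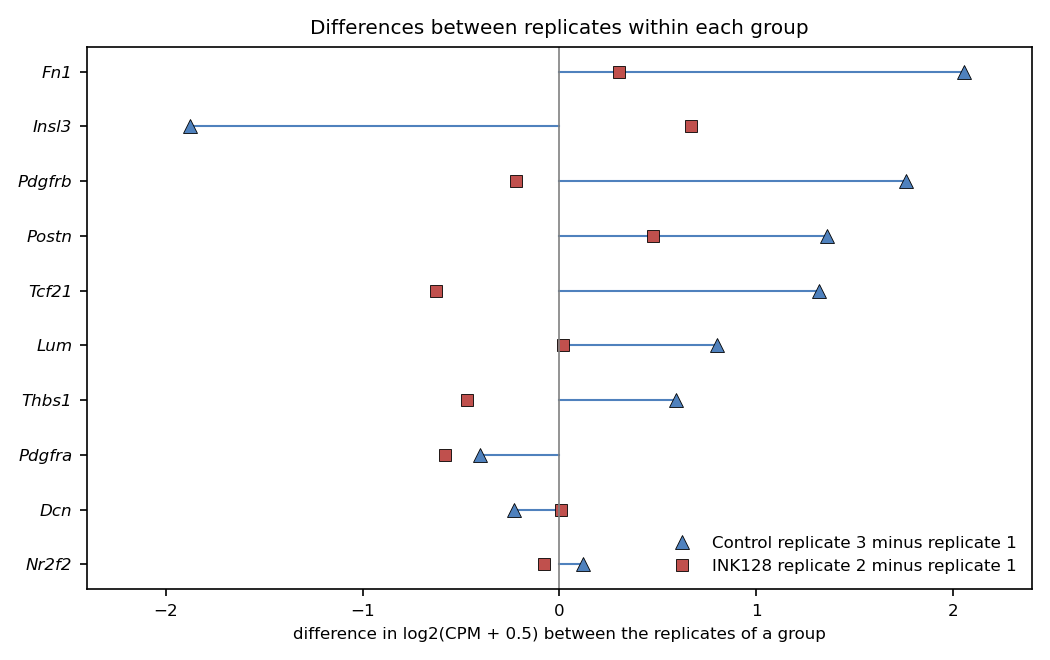
Difference in log2(CPM + 0.5) between the 2 replicates of each group for the 10 genes, blue triangles for Control replicate 3 minus replicate 1 and red squares for INK128 replicate 2 minus replicate 1. Control differences reach 2.06 for Fn1 and −1.88 for Insl3, whereas INK128 differences stay between −0.63 and 0.67.

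Per kilobase of exon, the mean level over the 4 libraries was highest for Dcn (389 CPM per kb) and Lum (275), followed by Tcf21 (71.1), Insl3 (49.5), Thbs1 (42.6), Pdgfra (32.3), Nr2f2 (20.9), Fn1 (19.4), Pdgfrb (13.6) and Postn (4.34). Dcn, Lum and Postn kept their places in each library. The order of the other 7 changed from library to library, as for Tcf21, which followed Lum with INK128 but stood below Insl3, Thbs1 and Pdgfra in Control replicate 1, and for each pair of neighbours in the order the ranges over the 4 libraries overlapped. Summed over the 10 genes, the level was 4988 and 4755 CPM with INK128 and 3442 and 3790 CPM in controls. Dcn made up 49.5% to 64.7% of that sum in each library.

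Markers of the remaining cell types that could bear on a stromal reading were counted in the same way. Of 8 immune markers 6 were tested, all 6 with a negative log2 fold change, 0 called by edgeR (3 at an unadjusted p below 0.05) and 4 called lower by DESeq2, with sums of 170 and 144 CPM with INK128 and 235 and 320 CPM in controls. All 5 endothelial markers were tested and 1, the VEGF receptor gene Kdr, was called lower, with sums of 338 and 371 CPM against 429 and 569 CPM. Of 5 mesothelial markers 2 were tested and 0 were called by edgeR (1 at an unadjusted p below 0.05), with 1 called lower by DESeq2 and sums of 27.4 and 26.0 CPM against 114 and 65.2 CPM. Of the 9 granulosa markers, all tested, and the 9 oocyte markers, 7 tested, 0 were called by edgeR (1 and 0 at an unadjusted p below 0.05), and DESeq2 called 1 granulosa marker higher and 0 oocyte markers. Fibroblasts of the host kidney express Pdgfra, Pdgfrb, Dcn and Fn1 as well, and the kidney tubule markers above were higher in both controls. Their part in the results for these genes and for Prelp, Spp1 and Timp3 was not tested.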

How the data were processed

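RNA-seq of rOvaries was analysed, with 2 INK128 and 2 Control libraries named by their labels. According to the study's methods, reads were trimmed with Trimmomatic, aligned to mm10 with Hisat2 and counted by featureCounts on RefGene. The deposited values are the authors' raw counts per gene symbol, used as they are. Versions, strand setting and the treatment of overlapping genes are not given in the sources used here. Libraries were scaled with TMM factors and tested with edgeR 4.0.16 in R 4.3.3 (quasi-likelihood, Benjamini-Hochberg over 11758 genes), with DESeq2 1.42.0 and limma 3.58.1 (voom) as alternatives. All were tested on simulated data. Standard errors are the log2 fold change divided by the root of F. Exon lengths and coordinates came from GENCODE M21 (GRCm38, the assembly of mm10), with lengths for 53447 of 54021 symbols. The 10 genes and the lists were chosen with earlier results of these data known. From each stromal list the called genes were named, and, where fewer than 2 were called, the 2 largest absolute log2 fold changes. Marker lists are given as counts and, apart from podocytes, sums. Single markers quoted in the text (Nphs1, Kdr, Rxfp2, Hsd3b6, those of pericytes and smooth muscle, and genes sharing exon bases) were chosen after their values were seen.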

Additional observations from a re-analysis of the deposited data

How the results depend on the processing

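Nr2f2, Tcf21, Lum, Dcn and Thbs1 kept their direction in all 14 alternative fits. The number of the 10 genes called, 1 in edgeR, was 3 with DESeq2 and with every gene of at least 1 count. At an adjusted p below 0.1 and the same 1.5-fold limit it was 2 (Nr2f2 and Lum), beside 3131 of the 11758 tested genes. With library totals it was 0, and so it was with limma voom and a mean CPM above 1 (3 genes at an unadjusted p below 0.05 in each, which 36.6%, 33.8% and 32.9% of all tested genes reached), and 0 with exon length offsets (1 gene at that p, against 26.6% of all). Leaving out 1 library gave 0 to 6, with 0 without either INK128 replicate (1 and 2 genes at that p, against 13.2% and 11.4% of all), 5 without Control replicate 1 and 6 without Control replicate 3. Limma voom, a mean CPM above 1, exon length offsets and both fits without an INK128 replicate called 0 of all tested genes, so their 0 says nothing of these genes in particular, while the fit without Control replicate 1 called 22.7% of all tested genes higher and 23.1% lower, and that without Control replicate 3 called 21.3% and 21.4%. Fits with 3 libraries take the lone library to vary like the other group. The stromal list genes called, 8 in edgeR, were 28 with DESeq2, 23 with at least 1 count, 22 at an adjusted p below 0.1, 0 with limma voom, a mean CPM above 1 and exon length offsets (30, 33 and 30 at an unadjusted p below 0.05, against the same shares of all genes as above), and 0 to 54 with 1 library left out, with 42 without Control replicate 1, 54 without Control replicate 3, and 0 without INK128 replicate 1 or 2 (13 and 10 at an unadjusted p below 0.05). The median log2 fold change of the 10 genes, 0.26, was 0.26 to 1.18 with 1 library left out, 0.72 with exon length offsets, 0.50 with limma voom and 0.14 with library totals. With 1 library left out, log2 fold changes ran from −0.061 to 0.52 for Pdgfra, −0.51 to 1.27 for Pdgfrb, −0.47 to 1.44 for Insl3, −0.52 to 1.54 for Fn1 and −0.034 to 1.35 for Postn, and Insl3 was −0.39 with exon length offsets. The cause of these shifts was not tested. With library totals, all tested genes had a median of −0.15, and relative to it Nr2f2 stood at 1.08 and Thbs1 at −0.54. No paired analysis was possible because the groups share only replicate number 1 in the labels.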
